A study of Mus musculus with 4 samples.

Results

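The genes described here are the integrins, cadherins, claudins and immunoglobulin-type adhesion molecules in HT-22, a line of immortalized cells from mouse hippocampus. They were taken by symbol from the deposited table: integrin alpha and beta subunits, numbered cadherins, claudins, the ICAM genes with Vcam1, the junctional adhesion molecules with F11r, the Cadm genes and the nectins. This gave 51 genes of 24689. RNA was sequenced in 4 libraries, 2 from cells with induced Pja2, titled Pja2-pb, and 2 from control cells, called uninduced in one label and WT in another. All were HT-22 cells of the same labelled passage range. Neither the means of induction nor whether both groups came from 1 line is given in the sources used here, so the effect of Pja2 and a difference between lines cannot be told apart. Whether the replicates were separate cultures is not given either, so p-values measure the spread between these libraries only, which may be technical.

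Integrins are heterodimers of an alpha and a beta subunit that bind matrix proteins or counter-receptors and link them to actin through talin, kindlin and their adaptors. Cadherins join like cells through calcium-dependent contacts and hold actin through catenins, claudins form the strands of tight junctions, and nectins, JAMs and Cadm proteins are immunoglobulin-type molecules that bind across the gap between cells. In the hippocampus N-cadherin, nectins and Cadm1 (also called SynCAM1) are known for their part in synapse formation.

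Pja2, which encodes a RING-type ubiquitin ligase, had 54829.8 and 54243.6 normalized reads (the deposited values with the log undone) in the induced libraries, against 6167 and 5881 in the controls (9.05-fold higher, limma adjusted p = 6.36e-05). Library totals ranged from 25787452 to 35262653 reads in genes. The label calls the cells hippocampal neurons, but most neuronal markers were near 0: of 11 in the table, 3 (Dlg4, Tubb3 and Camk2a) reached a mean of 1 CPM (reads scaled by the library's total). The neuronal genes Dcx, Syt1, Prox1 and Nefl had no read in at least 2 of the 4 libraries. Of 17 mesenchymal markers measured, 15 reached 1 CPM, S100a4 with the highest level per length. Among them 1 rose: Acta2, which encodes smooth muscle actin, had 393 and 403 normalized reads in induced libraries and 207 and 143 in controls (limma adjusted p = 0.0402). The proteoglycan gene Dcn fell, with 222 and 329 in induced libraries and 1049 and 765 in controls (adjusted p = 0.0259). The summed neuronal level was 76.1 and 87.5 CPM in the induced libraries and 98.7 and 77.5 CPM in the controls. Dlg4 and Tubb3, at means of 60.8 and 20.2 CPM, made up most of it. The summed mesenchymal level was 15948 and 16123 CPM in the induced libraries and 16069.9 and 14472 CPM in the controls. For both sums the groups overlapped. Endothelial markers, with 0 of 6 at 1 CPM, summed to 1.66 and 1.30 CPM in induced and 1.47 and 1.68 CPM in control libraries. Epithelial markers, with 1 of 9 at 1 CPM, summed to 8.24 and 7.52 CPM in induced and 8.26 and 10.5 CPM in control libraries. This was the one cell type marker list whose sums did not overlap, by a margin of 8.24 against 8.26 CPM. Cdh1 alone, at a mean of 7.93 CPM, made up most of these sums, so they describe Cdh1 rather than the list. Leukocyte markers, with 2 of 8 at 1 CPM, summed to 13.1 and 14.8 CPM in induced and 10.9 and 13.4 CPM in control libraries. Cd14, at a mean of 10.5 CPM, made up most of these sums. The entry named Itgam among them has the identifier of a read-through gene overlapping Itgam. Ptprc, the pan-leukocyte gene, had no read in either induced library or in 1 control. Of 8 astrocyte and oligodendrocyte markers measured, 5 reached 1 CPM, with sums of 544 and 596 CPM in induced and 621 and 542 CPM in control libraries. The part of any such cells in the values below was not tested, and in bulk RNA fewer cells of a type and less RNA per cell cannot be told apart.

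Of the 51 adhesion genes 27 reached a mean of 1 CPM and were tested, and 24 did not. In induced cells 2 of the 27 rose, Cadm1 and Itgb5, 0 fell, and 25 did not pass limma's test with Benjamini-Hochberg adjustment over 13276 genes at 0.05. Among all tested genes 2.08% were called higher and 1.34% lower, 3.42% in all. The log2 fold change was above 0 for 17 of the 27, where it was for 50.4% of all tested genes. At an unadjusted p under 0.05, 10 of the 27 stood out (6 higher and 4 lower), a share of 37.0% where all tested genes had 19.1%. The median log2 fold change of the 27 was 0.09, against 0.0025 for all tested genes. Both induced libraries lay above both controls for 9 members and below both for 6, together 55.6% of the 27. Of all tested genes 26.2% lay above in this way and 25.1% below, together 51.3%. With 2 libraries against 2, an exact permutation test of a single gene cannot go below p = 0.333 (two-sided), so the tests below are those of limma across all genes.

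The promoter letters of the 3 genes that passed in at least 1 fit and have an entry are shown first, since Itgb5 is one of the 2 genes called and Nectin3 and Itgb7 passed when 1 library was left out. The sequences are the 250 bases before the start of each gene, from RefSeq on GRCm38.p6, written 5′ to 3′ on the gene's strand. Of the 51 members 32 had an entry. Capitals mark matches on either strand to any of 7 motifs. These were the cAMP response element (TGACGTCA), the AP-1 site (TGANTCA) and the GC box (GGGCGG), together with the CCAAT box (written CCAAT), the TATA box (searched as TATAAA), the E-box that Snail factors bind (searched as CAGGTG) and the TEAD site (searched as GGAATG).
Itgb5, chr16:33829415-33829664, plus strand: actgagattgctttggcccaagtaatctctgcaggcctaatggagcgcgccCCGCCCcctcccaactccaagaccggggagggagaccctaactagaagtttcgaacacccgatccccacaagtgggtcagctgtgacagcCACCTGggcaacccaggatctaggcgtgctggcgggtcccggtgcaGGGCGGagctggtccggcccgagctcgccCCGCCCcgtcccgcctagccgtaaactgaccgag
Nectin3, chr16:46496968-46497217, minus strand: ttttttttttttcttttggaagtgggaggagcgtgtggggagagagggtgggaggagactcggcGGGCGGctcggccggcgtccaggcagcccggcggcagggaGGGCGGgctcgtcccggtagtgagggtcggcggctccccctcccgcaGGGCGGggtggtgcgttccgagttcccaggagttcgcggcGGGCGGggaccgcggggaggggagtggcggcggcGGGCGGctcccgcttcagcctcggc
Itgb7, chr15:102231936-102232185, minus strand: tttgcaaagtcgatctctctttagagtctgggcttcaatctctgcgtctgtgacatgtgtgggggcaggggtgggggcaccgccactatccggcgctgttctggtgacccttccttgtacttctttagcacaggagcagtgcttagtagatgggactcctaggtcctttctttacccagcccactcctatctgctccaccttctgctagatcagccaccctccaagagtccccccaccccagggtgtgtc
The window of Itgb5 held 3 GC boxes and 1 E-box, that of Nectin3 held 5 GC boxes, and that of Itgb7 held no match to the 7 motifs. None of these motifs overlapped another in the 3 windows. A GC box was present in 32.7% of 32851 such windows and the Snail-type E-box in 17.2%. The other shares were 1.55% for the cAMP response element, 6.75% for AP-1, 33.8% for CCAAT, 12.4% for TATA and 12.6% for TEAD. The GC content was 65.2% for Itgb5, 73.2% for Nectin3 and 56.0% for Itgb7, against a median of 52.4% over all windows.

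The levels of different genes can be set side by side only per length. RPKM, reads scaled by library total and by the length of the merged exons of GENCODE vM21, was computed here from the recovered reads. The integrin chains made up the largest summed level of the families. Itgb1, the common beta chain of matrix receptors, had the highest RPKM of all members, 198 ± 1.66 in induced and 188 ± 0.871 in control libraries (SD, n = 2 each). Itga5, the fibronectin-binding alpha chain, followed among alpha chains with 43.2 ± 1.45 RPKM in induced and 40.9 ± 2.41 in control libraries. Itga3, a laminin-binding chain, had 26.9 ± 1.46 RPKM in induced and 22.9 ± 2.59 in control libraries, and Itgav, the vitronectin-binding chain, had 14.6 ± 0.0196 in induced and 13.8 ± 1.71 in control libraries. These alpha chains kept the order Itga5, Itga3, Itgav in each of the 4 libraries. The cadherin with the highest RPKM was Cdh19, a type II cadherin known from Schwann cell precursors, with 29.6 ± 1.08 in induced and 34.1 ± 1.37 in control libraries. Next came Cdh2, which encodes N-cadherin, at 15.95 ± 0.408 in induced and 14.9 ± 0.333 RPKM in control libraries. Vcam1 (21.1 ± 1.12 RPKM in induced and 25.4 ± 2.35 in control libraries) was far above Icam5, and Nectin2 above Nectin1 and Nectin3.

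**Figure D1:**
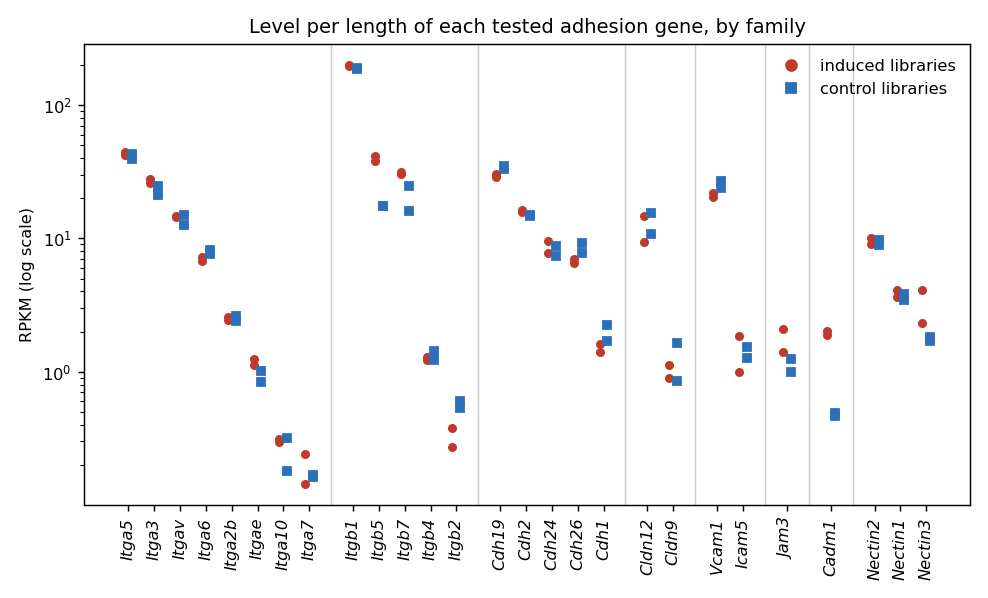
RPKM of each tested adhesion gene (log axis) in the 2 induced libraries (circles, left of each pair) and the 2 control libraries (squares, right), ordered by family and level. Itgb1 stood highest, and the induced circles of Itgb5 and Cadm1 lay clear of the control squares.

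Among beta chains Itgb5 (ENSMUSG00000022817, chromosome 16) rose. It encodes the beta 5 subunit, which pairs with the alpha v chain in a vitronectin receptor. Its normalized reads were 4851 and 4434 in the induced libraries, against 1999 and 2037 in the controls. The groups lay far apart and the control libraries were nearly level. The mean was 4642 ± 295 in induced and 2018 ± 26.4 in control cells (SD, n = 2 each), 2.30-fold higher. The log2 fold change was 1.20 (SE 0.07, limma adjusted p = 0.00363), and no exon of another gene overlaps its exons in GENCODE vM21. Its partner chain Itgav did not pass: 5128 and 5117 normalized reads in induced libraries stood against 5246 and 4434 in controls, and the groups overlapped (log2 fold change 0.09, 95% interval -0.14 to 0.31, adjusted p = 0.655). Itgb5 made up 15.2% and 14.3% of the summed beta chain RPKM in induced libraries and 7.76% and 7.59% in controls. The share of Itgb1 was 72.8% and 73.7% in induced libraries, against 84.2% and 80.8% in controls, while its own normalized reads had a log2 fold change of 0.09 (95% interval -0.05 to 0.23, adjusted p = 0.446).

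Itgb7 pairs with the alpha 4 chain and with the alpha E chain, the product of Itgae, and is best known from lymphocytes. It had 2832 and 2763 normalized reads in induced libraries, against 1451 and 2244 in controls. Both induced libraries were higher than both controls, but the controls were themselves far apart. The log2 fold change was 0.63 (95% interval 0.15 to 1.12, limma adjusted p = 0.170) and ran from 0.32 without control replicate 1 to 0.95 without control replicate 2, where it passed (adjusted p = 0.0153). Itgae had 187 and 169.7 normalized reads in induced libraries and 151 and 126 in controls, with a log2 fold change of 0.37 (adjusted p = 0.335). Itgb2, the beta chain of leukocytes, was the tested member of lowest CPM (1.37). It had 27.2 and 38.0 normalized reads in induced libraries and 52.8 and 60.03 in controls. The groups did not overlap (log2 fold change -0.79, 95% interval -1.55 to -0.03, limma adjusted p = 0.251). The induced libraries alone averaged just under 1 CPM, so its entry into the test depended on the group where it was high. Its alpha partners Itgal, Itgam and Itgax were all below the level tested. Itgb4, which pairs with the alpha 6 chain in hemidesmosomes, had 298 and 281 in induced and 279 and 325 in control libraries, with overlapping groups (log2 fold change -0.06, adjusted p = 0.857).

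None of the 8 tested alpha chains passed, and their log2 fold changes ran from -0.18 to 0.37 with a median of 0.13. Itga3 had 4824 and 5207 normalized reads in induced libraries and 4575 and 3924 in controls. The groups did not overlap, and the log2 fold change was 0.24 (95% interval 0.01 to 0.47, limma adjusted p = 0.245). Itga6, which binds laminin, leaned the other way with 1982 and 2131 in induced and 2379 and 2265 in control libraries (log2 fold change -0.18, adjusted p = 0.287). Itga5 had 6805 and 7135 in induced and 6813 and 6311 in control libraries, with overlapping groups (log2 fold change 0.09, 95% interval -0.08 to 0.26, adjusted p = 0.538). Itga2b, the platelet chain, had the log2 fold change nearest to 0 of all tested members (0.01, 95% interval -0.27 to 0.30). Itga10, a collagen-binding chain, and Itga7, a laminin-binding chain of muscle, had at most 59 reads in any library, and their intervals ran from -0.53 to 1.23 and from -0.66 to 1.02.

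**Figure D2:**
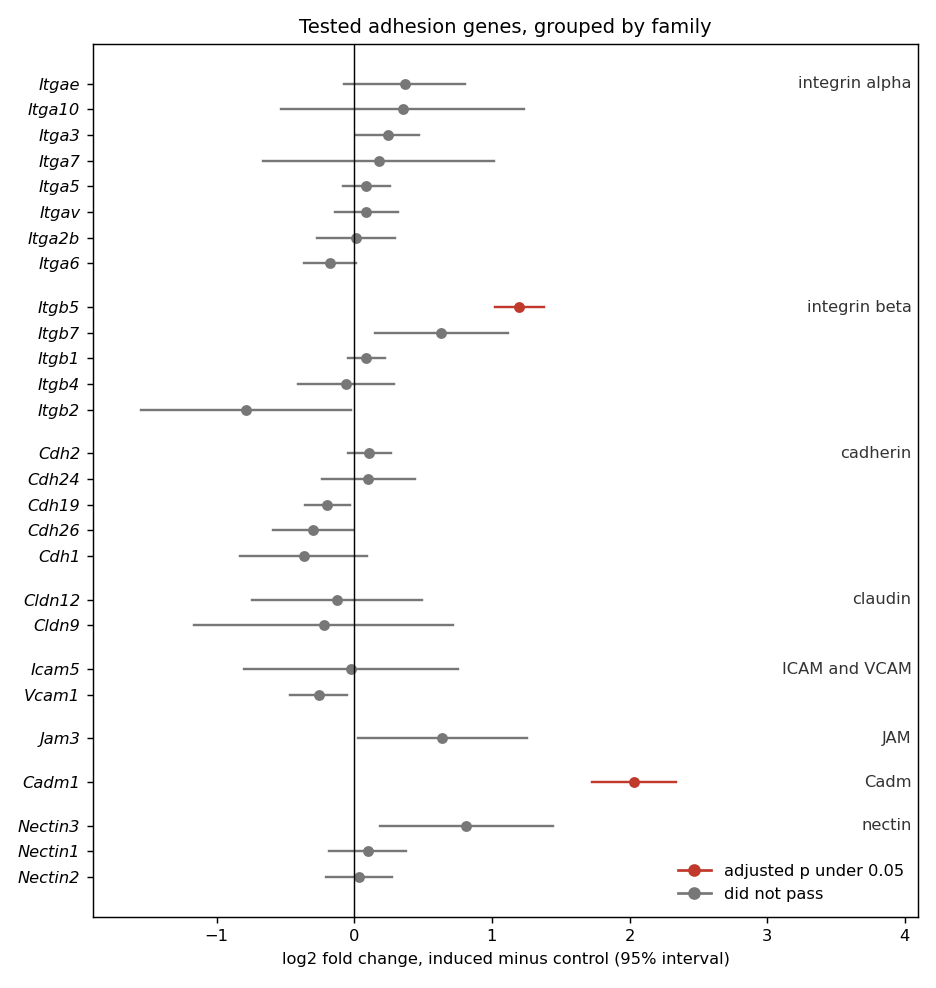
Log2 fold change, induced minus control, of the 27 tested adhesion genes (points) with limma's 95% interval (lines), grouped by family and ordered within each. Cadm1 at 2.03 and Itgb5 at 1.20 (red) passed the test, and the other 25 (grey) lay between -0.79 and 0.81.

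Cadm1 (ENSMUSG00000032076, chromosome 9) had the largest rise of the tested members. Cadm1 encodes an immunoglobulin-type molecule that binds itself and other Cadm proteins across cell contacts, including synapses. Its normalized reads were 643 and 684 in the induced libraries, against 165 and 158 in the controls. Libraries of each group lay close together and the groups were far apart. The mean was 664 ± 29.5 in induced and 161 ± 4.78 in control cells, 4.11-fold higher (log2 fold change 2.03, SE 0.12, limma adjusted p = 0.00363). These values rest on 591 and 738 reads in induced and 131 and 150 in control libraries, and no other gene's exons overlap its own. Per length Cadm1 remained a gene of low level, at 1.94 ± 0.0868 RPKM in induced and 0.475 ± 0.0165 in control libraries. It ranked 36 of 13276 by log2 fold change and Itgb5 99. Cadm4, the other Cadm gene in the table, known from Schwann cell contacts with axons, was the untested member nearest to the filter (0.821 CPM), with 31.5 and 29.7 normalized reads in induced and 23.9 and 22.1 in control libraries.

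The nectins bind each other across cells and hold the actin-binding protein afadin inside. Nectin3 (ENSMUSG00000022656, chromosome 16), a partner of both other tested nectins, had 970.0 and 1702 normalized reads in induced libraries, against 698 and 765 in controls. Both induced libraries were above both controls, and induced replicate 2 was far above replicate 1. The log2 fold change was 0.81 (95% interval 0.18 to 1.44, limma adjusted p = 0.172). Without induced replicate 1 it was 1.22 and passed (adjusted p = 0.0102), and without induced replicate 2 it was 0.41 (adjusted p = 0.286), so its size rests on 1 library. Nectin1 had 668 and 754 in induced and 697 and 632 in control libraries (log2 fold change 0.10, adjusted p = 0.688). Nectin2 had 1031 and 1153 in induced and 1108 and 1024 in control libraries (log2 fold change 0.03, adjusted p = 0.881). For both the groups overlapped. Nectin4 was below the level tested. It had 22 and 27 reads in induced libraries, against 6 and 0 in controls.

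Jam3, a junctional adhesion molecule that binds the product of Jam2, had 148 and 219 normalized reads in induced libraries, against 128 and 103 in controls. The groups did not overlap, but the induced libraries were well apart (log2 fold change 0.64, 95% interval 0.03 to 1.26, limma adjusted p = 0.248). Jam2 and F11r were below the level tested, with at most 6 reads in any library. Without induced replicate 2 the log2 fold change of Jam3 was 0.36.

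**Figure D3:**
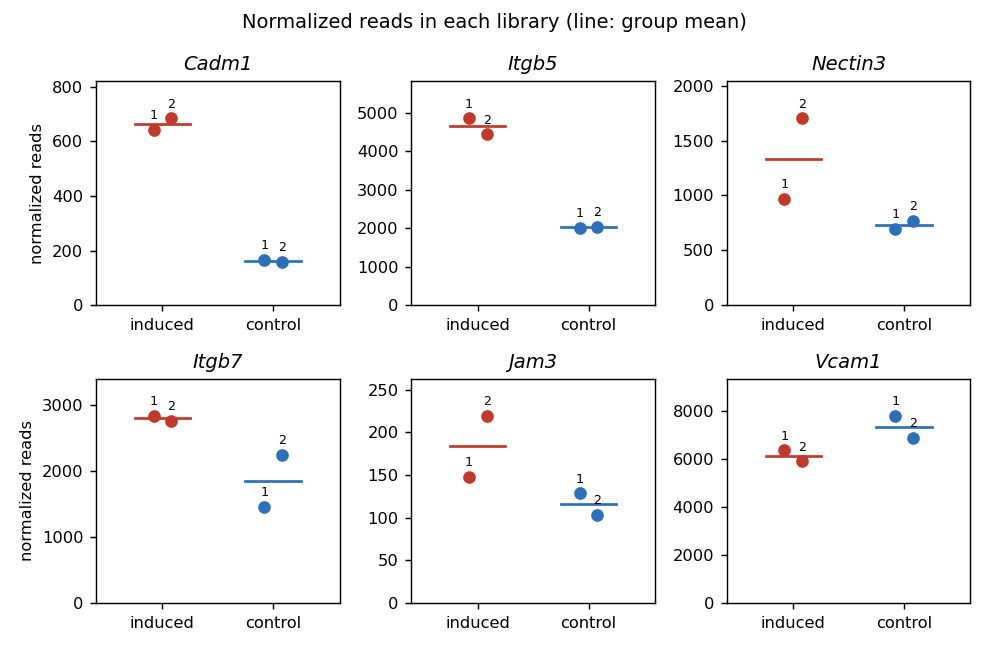
Normalized reads (axis from 0) of 6 adhesion genes in each library, with the replicate number beside each point and a line at the group mean, induced left and control right. Cadm1 and Itgb5 had tight, separate groups, while Nectin3 and Jam3 had induced libraries apart from each other and Itgb7 had controls apart.

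Of the 5 tested cadherins 0 rose, 0 fell and 5 did not pass. Both induced libraries lay below both controls for 3 of the 5 and above both for 1, where 25.1% of all tested genes lay below and 26.2% above, so with 5 genes nothing is read from this count. Cdh19 had 4251 and 4036 normalized reads in induced and 4868 and 4631 in control libraries (log2 fold change -0.20, 95% interval -0.36 to -0.03, limma adjusted p = 0.196). Cdh26, an atypical cadherin of epithelia, had 696 and 646 in induced and 899 and 758 in control libraries (log2 fold change -0.30, adjusted p = 0.255). Cdh1, which encodes E-cadherin, had 241 and 209 in induced and 251 and 334 in control libraries (log2 fold change -0.37, 95% interval -0.83 to 0.09, adjusted p = 0.354). For these 3 cadherins the groups did not overlap, though the differences were small. Cdh2 leaned slightly the other way, with 4133 and 4285 in induced and 3825 and 3977 in control libraries (log2 fold change 0.11, 95% interval -0.05 to 0.27, adjusted p = 0.410). Cdh24, a type II cadherin, had overlapping groups (881 and 1089.7 in induced, 983 and 847 in control libraries, adjusted p = 0.733). Per length Cdh1 stood at 1.504 ± 0.155 RPKM in induced and 1.97 ± 0.381 in control libraries, far below Cdh2 in both groups.

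Vcam1, an endothelial and stromal ligand of integrins that carry the alpha 4 chain, had 6361 and 5899 normalized reads in induced libraries, against 7793 and 6884 in controls. The groups did not overlap, and the log2 fold change was -0.26 (95% interval -0.46 to -0.05, limma adjusted p = 0.182); 1 annotated transcript gene, Gm43109, overlaps its exons. Icam5, a molecule of neuronal dendrites, had 96.8 and 178 in induced and 146 and 122 in control libraries. Its induced libraries lay on both sides of the controls (log2 fold change -0.02, 95% interval -0.80 to 0.76), and it shares exon positions with 2 other annotated genes. Icam1, a leukocyte ligand, had at most 4 reads in a library.

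Cldn12, a claudin also found in brain vessels, differed more within each group than between the groups. It had 1304 and 2019 normalized reads in induced libraries and 1476 and 2124 in controls, with the second library higher in both groups (log2 fold change -0.13, 95% interval -0.75 to 0.49, limma adjusted p = 0.826). Cldn9, a claudin of the inner ear, had 42.4 and 52.9 in induced and 76.7 and 40.02 in control libraries (log2 fold change -0.22, adjusted p = 0.796). For both claudins the groups overlapped.

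The 24 members below the filter had at most 32 reads in any library, and 13 of them reached 10 reads in at least 1. Itgax, Cdh22 and Cdh15 had 0 reads in both induced libraries, and Itgam, Itgb6 and Cldn2 had 0 in both controls. None of these 6 exceeded 11 reads in a library, and the identifier given for Itgam is that of a read-through gene overlapping Itgam in GENCODE vM21. These 24 were tested only in the alternative fit with no filter on low values, where none of them was called.

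Both chromosome 16 members among the 27, Itgb5 and Nectin3, were higher in induced libraries, and so were other genes of that chromosome. The median log2 fold change of the 403 tested genes of chromosome 16 was 0.31, with 85 called higher and 6 lower. Over the 12849 tested genes placed on other chromosomes it was -0.0036, and the 19 other chromosomes with at least 100 tested genes had medians from -0.09 to 0.05. Chromosome 16 took 3.03% and 3.06% of the reads of the induced libraries, against 2.40% and 2.34% of those of the controls. The 20 nearest tested genes around Itgb5, 10 on each side, all had log2 fold changes above 0, with a median of 0.53 and a range of 0.13 to 0.89, and 8 of them were called higher. Itgb5 at 1.20 lay above each of these 20 and ranked 7 of the tested genes of its chromosome. Around Nectin3 16 of 20 neighbours were above 0, with a median of 0.56, and 9 were called higher, among them Cd47, an integrin-associated membrane protein gene (log2 fold change 0.51, adjusted p = 0.0260, named after its values were seen). Nectin3 at 0.81 lay within the range of its neighbours, which reached 1.32. The part of the chromosome in either gene's value was not tested. Cadm1 stood apart from its surroundings on chromosome 9: its 20 neighbours had a median of -0.03 and a range of -0.66 to 0.36. Itgb7 on chromosome 15 had neighbours with a median of 0.01. Without the genes of chromosome 16 in the fit, Cadm1 kept its call (adjusted p = 0.00425).

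**Figure D4:**
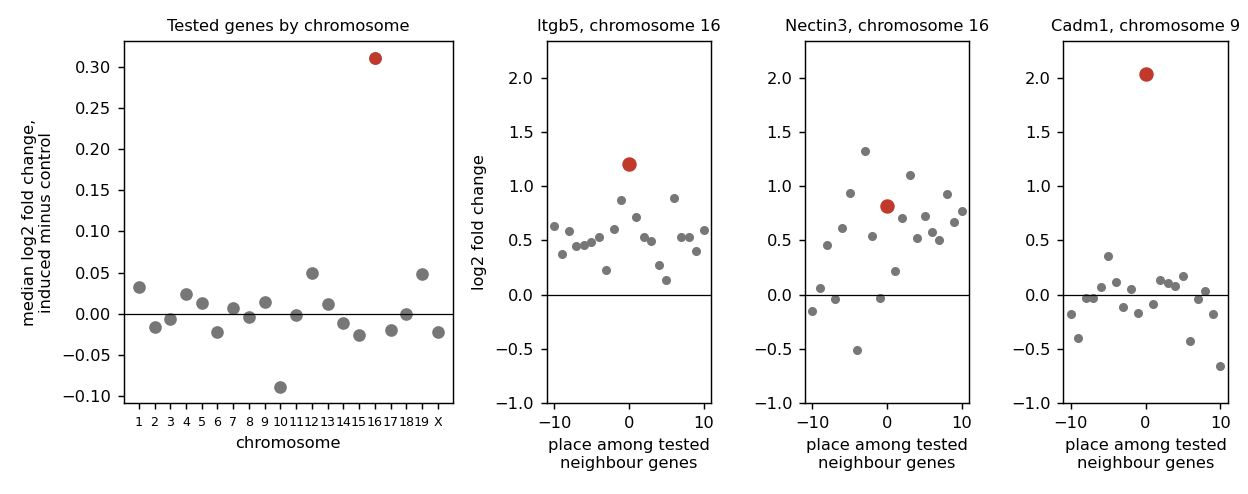
Left, the median log2 fold change, induced minus control, of the tested genes of each chromosome, with chromosome 16 in red. Right, the log2 fold change of Itgb5, Nectin3 and Cadm1 (red) and of the 10 nearest tested genes on each side (grey, in chromosome order): the neighbours of Itgb5 all lay above 0 and those of Cadm1 around 0.

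Genes that work with these molecules were taken from lists. Beside the counts of calls below stand 2.08% higher and 1.34% lower among all tested genes. Of 33 tested integrin activators and focal adhesion adaptors 1 rose, 0 fell and 32 did not pass, with a median log2 fold change of 0.03. The one was Crk, an SH2 and SH3 adaptor that docks on phosphorylated paxillin and p130Cas. Crk had 7880.4 and 7865 normalized reads in induced libraries, against 2089 and 1991 in controls, 3.86-fold higher with a log2 fold change of 1.95 (SE 0.06, limma adjusted p = 0.000423). It held its call without any 1 library (adjusted p up to 0.00268). Flna, the adaptor of highest RPKM, had a log2 fold change of 0.18 (adjusted p = 0.279).

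Of 13 tested catenins and other cadherin partners 1 rose (2.08% of all tested genes), 0 fell and 12 did not pass, with a median of 0.11. Camsap3 anchors microtubule minus ends, also at cadherin junctions. It had 68.5 and 52.9 normalized reads in induced libraries, against 13.8 and 11.6 in controls (log2 fold change 2.16, limma adjusted p = 0.0372). It reached the filter (mean 1.12 CPM) only through the induced libraries. Its entry into the test thus depended on the group where it was high. Its call ended without any 1 library (adjusted p 0.0704 to 0.171) and with no filter on low values (0.0777), and its exons overlap those of Xab2. Ctnnb1, which encodes beta-catenin, had a log2 fold change of 0.18 (adjusted p = 0.630). Of 11 tested tight junction scaffolds and strand genes 0 rose and 0 fell in limma's fit. Their log2 fold changes ran from -0.28 to 1.75, with a median of 0.01 and 6 above 0. Tjp1, which encodes ZO-1, had a log2 fold change of 0.10 (adjusted p = 0.492). The highest was Ocln, named after its values were seen (1.75, adjusted p = 0.0793). It had 62.0 and 68.6 normalized reads in induced libraries, against 13.8 and 25.3 in controls. Ocln reached the filter (mean 1.30 CPM) only through the induced libraries. Neither of the 2 desmosome genes in the table reached the level tested.

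Of 4 tested immunoglobulin-type adhesion genes outside the families above 1 fell (1.34% of all tested genes), 0 rose and 3 did not pass. The one was Ncam1, the neural cell adhesion molecule, with 1439.7 and 1459.7 normalized reads in induced libraries, against 2216 and 2358 in controls (log2 fold change -0.66, SE 0.07, limma adjusted p = 0.0159). It held its call without any 1 library (adjusted p up to 0.0419). Ncam1 is the tested gene 10 places from Cadm1 on chromosome 9, and the 2 genes moved in opposite directions. Thy1, the most abundant per length, had a log2 fold change of -0.38 (adjusted p = 0.150).

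Of 19 tested integrin ligands of the matrix 1 rose, 3 fell and 15 did not pass, with a median of 0.08. Of all tested genes 2.08% were called higher and 1.34% lower. The list was chosen with earlier results of these data known, so nothing is read from this count. Tnc, a tenascin gene, had 3655 and 3866 normalized reads in induced libraries, against 7634 and 5715 in controls (log2 fold change -0.81, adjusted p = 0.0406). Lama2, a laminin chain gene, had 35.9 and 34.3 in induced libraries, against 145 and 107 in controls (log2 fold change -1.80, adjusted p = 0.0280). Nid2, a nidogen gene with exons overlapping those of Rtraf, had 0 reads in both induced libraries and 112 and 69.5 normalized reads in controls (limma adjusted p = 0.00918). Nid2 reached the filter (mean 1.39 CPM) only through the controls, so its entry into the test depended on the group where it was high. Nid1, its relative, named after its values were seen, had 41245 and 43139.8 in induced and 32201 and 31460.5 in control libraries (log2 fold change 0.41, adjusted p = 0.0306). Leaving out any 1 library ended the calls of Lama2 and Nid1 (adjusted p up to 0.0962 and 0.162), as did leaving out certain libraries for Tnc (either induced library, up to 0.0833) and for Nid2 (control replicate 1, 0.0582). With no filter on low values the calls of Tnc (adjusted p = 0.0931), Lama2 (0.0647) and Nid1 (0.0628) ended as well. Vtn, the vitronectin ligand of the receptor that holds Itgb5, had no read in 3 of the 4 libraries. The ligand gene of highest level per length, Col1a2, had a log2 fold change of -0.07 (adjusted p = 0.691).

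Exons of other annotated genes overlap those of Ncam1, Tnc, Lama2 and Nid1. Among tested members the same holds for Itgav, Itga7, Itga10, Itgb4, Nectin2 and Jam3, besides Vcam1 and Icam5. The library kit does not mark strand, so reads from the bases that such pairs share cannot be told apart. The extent of the overlaps was not measured. None of this applies to Cadm1, Itgb5, Itgb7, Nectin3 or Crk.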

How the data were processed

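Each of 24689 genes has 4 deposited values, in columns that the labels' descriptions tie to the samples. HISAT, Cufflinks and mm9 are named in the submitters' processing notes, and what counted and scaled the reads is not stated there. As for units, the deposited log2 values were found to be log2(normalized reads + 1): after undoing the log, 100% were whole multiples of a step particular to the library (tolerance 0.01). CPM and RPKM were computed here from the whole reads so recovered, which totalled 30080376 and 35262653 for the induced and 25787452 and 31010351 for the control libraries.

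The 13276 genes averaging 1 CPM or more were fitted by limma 3.58.1 (R 4.3.3), with a variance trend, both groups and no covariate. P-values are two-sided and adjusted by Benjamini-Hochberg over these genes, with a threshold of 0.05. The pseudocount of 1 understates the change of genes with few reads. Fold is the ratio of group means of normalized reads. No library repeats another: between replicates, counts differed more than sampling allows, with a chi-square per gene of 15.8 (induced) and 20.7 (control).

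Chromosomes, gene order and exons are those of GENCODE vM21 (GRCm38), which holds all 51 members; since mm9 differs, coordinates are given for the RefSeq promoters only.

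The members and lists were chosen with earlier results of these data known. Genes were named by a rule: members past the threshold, in each family the 2 of largest change and the 2 of highest level, members nearest to the filter, the 5 most level among the 20 most abundant members, and in each list up to 3 called genes and the one of highest level. Alternatives were voom on recovered reads, CPM and upper quartile scaling, another pseudocount, other filters, a replicate block, each library left out, and a fit without chromosome 16.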

Additional observations from a re-analysis of the deposited data

How the results depend on the processing

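Cadm1 and Itgb5 passed the test in every alternative in which they were tested, 12 for Cadm1 (log2 fold change 1.84 to 2.08) and 11 for Itgb5 (1.14 to 1.26). Among members, 2 were higher and 0 lower in each of the other fits, except that 1 was higher without chromosome 16, since Itgb5 is then not tested, and that Itgb7 or Nectin3 joined without 1 library. Over all tested genes, 276 higher and 178 lower became 100 and 59 without the filter and 157 and 104 with the replicate block, and 170 were higher without chromosome 16. With 1 library left out, 113 to 204 were higher and 78 to 136 lower in limma fits that assume the lone library of a group to vary like those of the other. Whether same-numbered libraries were handled together is not given in the sources used here and was not tested. Their deviations correlated at -0.095 over all genes, a value that does not describe single genes. The replicate block changed no call among the members. Among the called partner and ligand genes it ended the calls of Camsap3 (adjusted p = 0.0712) and Nid1 (0.102). Of 315 refits of single members, 296 kept their direction and side of the threshold and 17 changed sign, all of members that did not pass. Itga2b was at -0.0045 with upper quartile scaling and Icam5 at 0.0065 with voom. With 1 library left out the log2 fold change ran from -0.034 to 0.21 for Itgav, -0.044 to 0.073 for Itga2b, -0.055 to 0.76 for Itga10, -0.19 to 0.55 for Itga7, -0.17 to 0.052 for Itgb4, -0.051 to 0.26 for Cdh24, -0.44 to 0.19 for Cldn12, -0.68 to 0.24 for Cldn9, -0.46 to 0.41 for Icam5 and -0.047 to 0.11 for Nectin2. The causes were not tested. Itga7, Itga10, Itgb2 and Cldn9 had wide intervals and at most 61 reads in a library. Genes with more reads had wide intervals too. Icam5 had 89 to 192 reads in a library and an interval of -0.80 to 0.76. Nectin3 had 555 to 1835 reads and an interval of 0.18 to 1.44.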
